A study of Mus musculus with 9 samples.

Results

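Voltage-gated calcium and sodium channels were examined as a gene family in RNA-seq libraries of soleus muscle, brown fat and white fat. The family comprised every gene whose symbol begins with Cacna, Cacnb, Cacng or Scn followed by a digit, and held 39 of the 17753 genes of the expression matrix, of which 37 are described. Soleus is a leg muscle used in posture, brown fat burns lipid for heat and white fat stores it. The mice were C57BL/6J wild-type males, 3 months old, with 3 libraries per tissue and no treatment, transgene or mutant allele in any group. The labels give 3 mice without saying which libraries share one, and do not name the white fat depot, so p-values measure the spread between these libraries, which may in part be technical.

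A voltage-gated calcium channel is built around a pore-forming alpha1 subunit (Cacna1 genes), joined by an extracellular alpha2delta subunit (Cacna2d genes), a cytoplasmic beta subunit (Cacnb genes) and, in skeletal muscle, a membrane-spanning gamma subunit (Cacng genes). A voltage-gated sodium channel has a single large alpha subunit (Scn1a and its relatives) and smaller beta subunits (such as Scn4b). In skeletal muscle the sodium channel carries the action potential along the fibre, and the calcium channel of the transverse tubule senses it and opens the ryanodine receptor of the sarcoplasmic reticulum. Most other members are best known from neurons, heart, smooth muscle or sensory cells.

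Values are FPKM, sequenced fragments per unit of transcript length and of mapped depth, so levels of different genes can be set side by side. Read totals were not given, and the spacing of low values put relative depths at 1.00 to 3.59, both extremes being white fat libraries. The tissue labels were checked against marker genes. The 8 slow fibre markers in the matrix summed to 24825 to 29461 FPKM in soleus, 70.5 to 80.7 FPKM in brown fat and 55.8 to 57.3 FPKM in white fat. Brown adipocyte markers summed to 4270 to 5642 FPKM in soleus, 11830 to 13190 FPKM in brown fat and 40.7 to 179.7 FPKM in white fat. Most of the soleus sum was Cox8b, a cytochrome oxidase gene of muscle and brown fat, at 4243, 5623 and 4265 FPKM. Adipocyte markers summed to 1848, 1084 and 740 FPKM in soleus replicates 1, 2 and 3. They summed to 4255 to 4639 FPKM in brown fat and 7152 to 8508 FPKM in white fat. Most of that soleus sum was Fabp4, at 1272, 827 and 617 FPKM, and Adipoq stood at 77.1, 31.8 and 12.4 FPKM. The part of fat RNA in the soleus levels was not tested. Acta1, Ckm, Mb and Tnnt3 were listed at 0 in soleus. Fabp4 had the same listing in both fats, and Cfd, at 2044 to 2145 FPKM in brown fat, was listed at 0 in white fat. An exact 0 in such a matrix can be a failed estimate, so a zero is described only as listed.

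Of the 37 members described, 13 reached 1 FPKM in at least 3 libraries and were tested, and 24 did not. Among these 37, 10 members averaged 1 FPKM or more in soleus, 6 in brown fat and 8 in white fat. Those counts differ less than the genes behind them, because the alpha1, beta and gamma classes of the calcium channel and the alpha class of the sodium channel each had a different leading gene in muscle and in fat. Differences are given on the scale of log2(FPKM + 1), where low genes appear to change less than they do, and a gene was called at a limma adjusted p under 0.05 over the 9913 genes tested. Soleus against brown fat gave 10 tested members higher and 2 lower, beside 25.6% of all tested genes higher and 52.9% lower (78.5% called). Soleus against white fat gave 8 higher and 5 lower, beside 29.7% and 54.5% of all tested genes (84.2% called). Brown against white fat gave 4 higher and 5 lower, beside 38.0% and 34.8% (72.8% called). The median difference of the tested members was 3.65, 2.85 and 0.17 log2 units in these comparisons, and that of all tested genes was -0.29, -0.35 and 0.03. Of all called genes, 32.6% were higher in soleus against brown fat and 35.3% in soleus against white fat. Median of ratios scaling put these shares at 52.5% and 49.9% (median differences 0.04 and -0.01), and TPM rescaling put the share against white fat at 21.3% (median -0.78). No called member changed direction under either. The member counts describe the tested genes alone. Cacna1s, Cacng1, Cacng6, Scn4a and Scn4b reached 1 FPKM in soleus libraries alone and Cacnb3 in white fat libraries alone, so they entered the test through the tissue where they were high. Cacnb4 reached 1 FPKM in libraries of both fats but not of soleus, so the filter fixed its direction against soleus. Cacnb1 did not reach it in any white fat library, nor Scn3b in any brown fat library, so the same limit holds for their comparisons with those tissues.

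**Figure D1:**
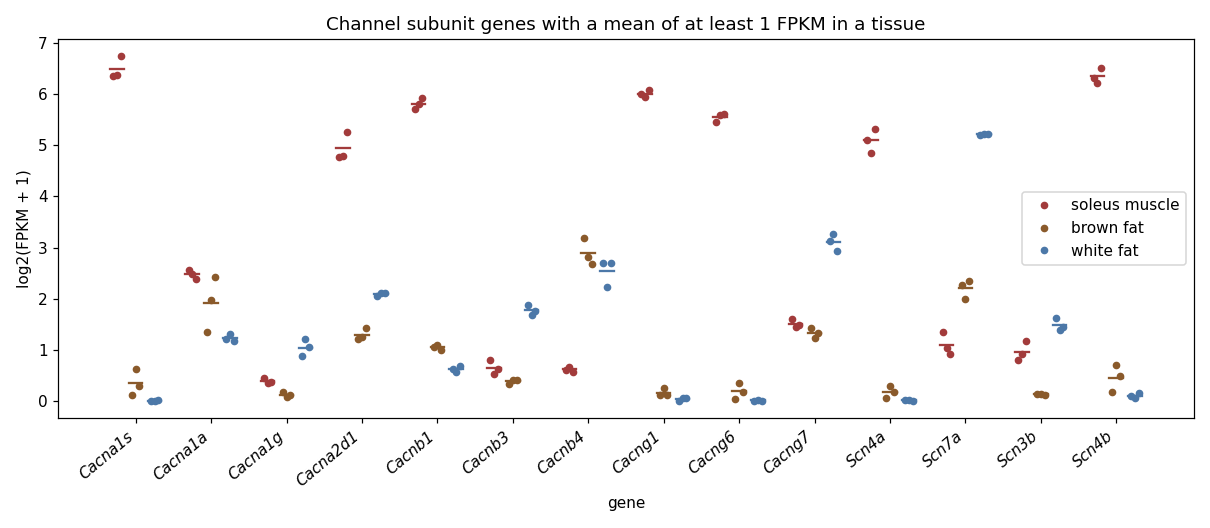
Levels of the 14 channel genes that averaged 1 FPKM or more in a tissue, as log2(FPKM + 1) on the vertical axis and by gene on the horizontal axis, with a point per library and a line at the mean of the 3 plotted values. Cacna1s, Cacnb1, Cacng1, Cacng6, Scn4a and Scn4b stand high in soleus and low in both kinds of fat, Scn7a stands highest in white fat, and Cacnb4 is higher in both kinds of fat than in soleus.

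Every subunit of the skeletal muscle calcium channel was among the members with high values in soleus. Cacna1s, which encodes the alpha1 subunit that serves as the voltage sensor of excitation-contraction coupling, stood at 81.2, 82.1 and 106 FPKM in soleus replicates 1, 2 and 3, at 0.0824, 0.552 and 0.228 FPKM in brown fat, and at 0.00514, 0 and 0.00797 FPKM in white fat. No library of one tissue overlapped another. The mean was 89.8 ± 14.2 FPKM in soleus, 0.288 ± 0.240 FPKM in brown fat and 0.00437 ± 0.00404 FPKM in white fat (SD, n = 3 each). Soleus was higher than brown fat by 6.14 log2 units (SE 0.14, limma adjusted p = 2.3e-11) and higher than white fat by 6.49 (SE 0.14, limma adjusted p = 1.8e-11). Cacna1s alone made up 93.3% to 95.6% of the summed alpha1 FPKM of a soleus library.

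The accessory subunits of that channel were likewise highest in soleus, though not all were near 0 in fat. Cacnb1, the beta subunit of the muscle channel, stood at 51.5, 55.0 and 59.5 FPKM in soleus, 1.09, 1.14 and 0.998 FPKM in brown fat, and 0.548, 0.484 and 0.606 FPKM in white fat. Soleus exceeded brown fat by 4.76 log2 units (SE 0.07, limma adjusted p = 2.3e-12), and the ratio of the means was 51.5. Cacna2d1, the alpha2delta subunit that binds gabapentin, stood at 26.2, 26.8 and 37.4 FPKM in soleus, 1.31, 1.37 and 1.69 FPKM in brown fat, and 3.17, 3.34 and 3.30 FPKM in white fat. It was thus present at more than 1 FPKM in every library, with soleus 20.7 times the brown fat mean and 9.22 times the white fat mean. Its soleus differences were 3.65 (SE 0.12, limma adjusted p = 5.3e-10) against brown fat and 2.85 (SE 0.12, limma adjusted p = 3.5e-09) against white fat.

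Both muscle gamma subunits were high in soleus and under 0.3 FPKM in every fat library. Cacng1 stood at 63.0, 60.5 and 66.9 FPKM in soleus, 0.0803, 0.195 and 0.0881 FPKM in brown fat, and 0, 0.0446 and 0.0374 FPKM in white fat. Cacng6 stood at 42.6, 47.0 and 48.2 FPKM in soleus, 0.0294, 0.270 and 0.129 FPKM in brown fat, and 0, 0.0162 and 0.00454 FPKM in white fat. For both genes the 3 soleus libraries lay within a narrow band and far above every fat library. The difference between soleus and brown fat was 5.85 log2 units for Cacng1 (SE 0.07, limma adjusted p = 9.8e-13) and 5.36 for Cacng6 (SE 0.09, limma adjusted p = 2.8e-12). Summed over a class, soleus libraries held 87.0 to 111 FPKM of alpha1, 26.8 to 38.3 FPKM of alpha2delta, 52.8 to 60.6 FPKM of beta and 108 to 117 FPKM of gamma transcripts. The levels of Cacna1s, Cacnb1 and Cacng1 in soleus therefore lay within a factor of 2 of each other per unit of transcript length, with Cacng6 and Cacna2d1 below them.

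**Figure D2:**
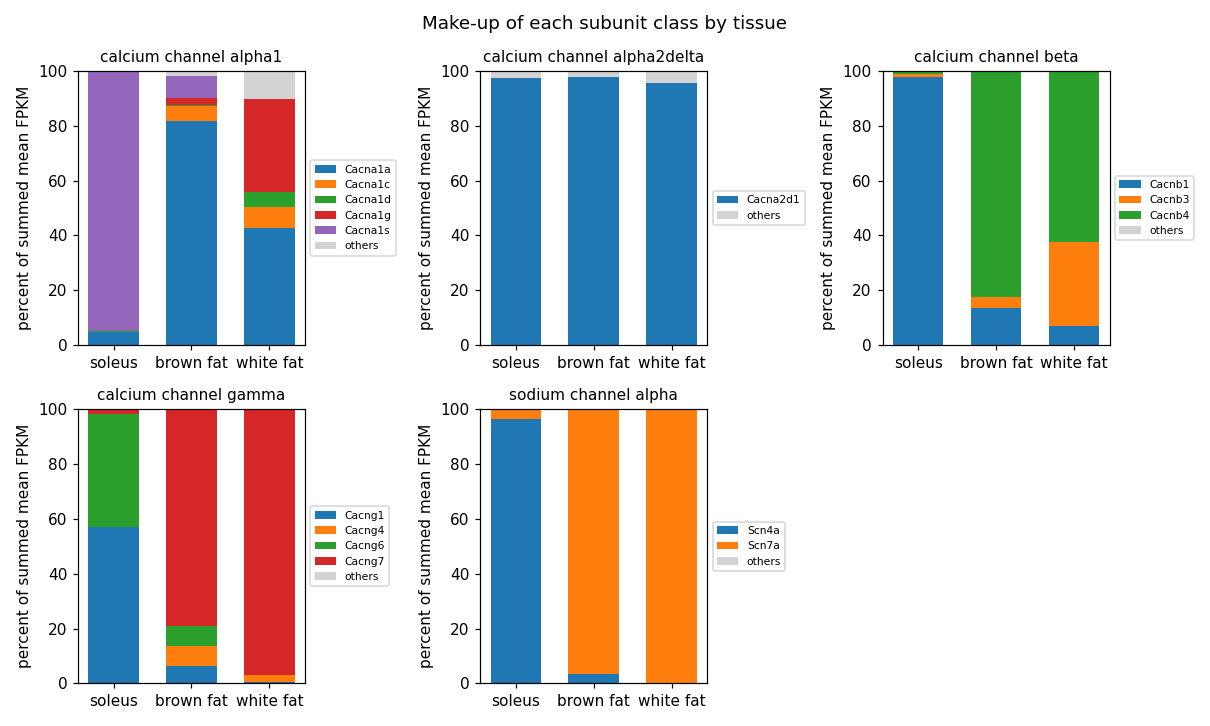
Share of each gene in the summed mean FPKM of its subunit class (5 classes, members described), in percent, for soleus, brown fat and white fat, with genes under 5% in all 3 tissues pooled as others. The leading gene of the alpha1 class is Cacna1s in soleus and Cacna1a in both kinds of fat, that of the beta class Cacnb1 against Cacnb4, that of the gamma class Cacng1 against Cacng7, and that of the sodium channel alpha class Scn4a against Scn7a.

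Upstream sequences were read for the soleus genes and for Scn7a, the sodium channel gene of white fat, from the RefSeq promoter table on build GRCm38.p6 (another build than that of the expression values), as the 250 bases before the listed start. Entries were found for 29 of the 37 members, and Cacng1 had none. Capitals mark the letters CANNTG, the E-box that myogenic and other basic helix-loop-helix factors bind, which reads the same on both strands.

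Cacna1s, chr1:136052561-136052810, plus strand: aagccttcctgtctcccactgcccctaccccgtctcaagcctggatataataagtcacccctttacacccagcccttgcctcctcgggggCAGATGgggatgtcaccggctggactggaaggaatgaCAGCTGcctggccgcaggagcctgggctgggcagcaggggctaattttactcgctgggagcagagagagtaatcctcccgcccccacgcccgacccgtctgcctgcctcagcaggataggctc

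Cacng6, chr7:3424412-3424661, plus strand: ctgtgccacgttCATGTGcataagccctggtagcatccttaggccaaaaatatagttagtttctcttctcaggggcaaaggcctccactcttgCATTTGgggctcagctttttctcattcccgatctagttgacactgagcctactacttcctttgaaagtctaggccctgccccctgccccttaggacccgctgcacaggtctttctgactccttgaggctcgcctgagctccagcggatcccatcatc

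Scn4a, chr11:106349391-106349640, minus strand: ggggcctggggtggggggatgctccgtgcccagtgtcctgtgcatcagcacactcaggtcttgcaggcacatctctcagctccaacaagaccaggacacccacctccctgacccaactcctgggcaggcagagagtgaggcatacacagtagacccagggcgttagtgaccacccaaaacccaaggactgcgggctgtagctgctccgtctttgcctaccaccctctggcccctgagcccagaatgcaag

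Scn7a, chr2:66784911-66785160, minus strand: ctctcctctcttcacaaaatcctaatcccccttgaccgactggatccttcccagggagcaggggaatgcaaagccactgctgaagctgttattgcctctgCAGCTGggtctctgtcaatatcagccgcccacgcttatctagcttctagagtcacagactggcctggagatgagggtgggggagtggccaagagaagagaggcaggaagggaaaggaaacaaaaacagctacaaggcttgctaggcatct

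The Cacna1s window held 2 such matches, one of them CAGCTG, a form that also counts as CANNTG. The Cacng6 window held 2 and the Scn7a window 1, while the Scn4a window held none. Of all 27025 promoter windows of this length, 66% held CANNTG, 12.8% held CAGCTG and 0.518% held a MEF2 site. Of the 29 members, 18 held CANNTG, 8 held CAGCTG and 0 held a MEF2 site. Of the 7 members higher in soleus than in both kinds of fat by more than 2 log2 units, a group drawn after the values were seen, 6 had an entry and 2 of those held CANNTG. A match is a description of the letters in the window.

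The sodium channel of the muscle fibre showed the same tissue order. Scn4a, the alpha subunit of skeletal muscle, stood at 33.4, 28.0 and 39.1 FPKM in soleus, 0.0373, 0.232 and 0.129 FPKM in brown fat, and 0.00997, 0.00691 and 0.00386 FPKM in white fat. It supplied 95.4% to 97.4% of the summed FPKM of the 8 sodium channel alpha genes described, in each soleus library. The difference was 4.92 log2 units against brown fat (SE 0.11, limma adjusted p = 2.6e-11) and 5.09 against white fat (SE 0.11, limma adjusted p = 2.6e-11).

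The beta subunits of the sodium channel are described by the members Scn4b, Scn2b and Scn3b. Scn4b, a beta subunit that blocks the open channel in neurons, stood at 78.2, 73.9 and 90.2 FPKM in soleus, 0.130, 0.635 and 0.403 FPKM in brown fat, and 0.0632, 0.0438 and 0.113 FPKM in white fat. Its soleus difference was 5.89 log2 units against brown fat (SE 0.13, limma adjusted p = 1.8e-11) and 6.25 against white fat (SE 0.13, limma adjusted p = 1.3e-11). Scn2b stood at 0.289, 0.2999 and 0.329 FPKM in soleus, 0, 0.00634 and 0.00668 FPKM in brown fat, and 0.0878, 0.101 and 0.148 FPKM in white fat, too low for the test.

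In both kinds of fat another set of subunits led. Cacnb4, a beta subunit known from the brain, stood at 0.528, 0.594 and 0.477 FPKM in soleus, 8.09, 6.00 and 5.42 FPKM in brown fat, and 5.45, 3.67 and 5.51 FPKM in white fat. Both fats lay above every soleus library, and they overlapped each other. As it reached 1 FPKM in fat libraries alone, the filter fixed its direction against soleus. Soleus was lower than brown fat (difference -2.28 log2 units, SE 0.15, limma adjusted p = 1.1e-07) and lower than white fat (difference -1.92, SE 0.15, limma adjusted p = 3.6e-07). Cacnb4 made up 79.8% to 85.6% of beta subunit FPKM in brown fat libraries and 57.6% to 64.4% in white fat libraries, against 97.4% to 98.2% for Cacnb1 in soleus.

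Cacna1a, the alpha1 subunit of the P/Q-type channel of nerve terminals, was the alpha1 gene with the highest value in every fat library. It stood at 4.90, 4.57 and 4.21 FPKM in soleus, 1.53, 2.92 and 4.34 FPKM in brown fat, and 1.33, 1.49 and 1.26 FPKM in white fat. The brown fat libraries spread over nearly the whole span between white fat and soleus, and replicate 3 lay within the soleus range. Soleus was higher than white fat by 1.24 log2 units (SE 0.21, limma adjusted p = 0.00021) and higher than brown fat by 0.56 (SE 0.21, limma adjusted p = 0.028). The call against brown fat was lost without brown fat replicate 1 (adjusted p = 0.064), soleus replicate 1 (0.079) or soleus replicate 2 (0.067), and without a filter on low values (0.063), over a range of 0.0012 to 0.079 in limma fits.

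White fat held the highest levels of a further group. Scn7a, a relative of the sodium channels that acts as a sensor of extracellular sodium and is known from glia, stood at 1.54, 1.06 and 0.892 FPKM in soleus, 3.78, 2.99 and 4.11 FPKM in brown fat, and 35.8, 36.1 and 36.3 FPKM in white fat. The white fat libraries lay close together (SD 0.244 on an average of 36.1 FPKM), and none of the 3 tissues overlapped. In soleus Scn7a fell from replicate 1 to 3, as did the adipocyte marker sums, while Cacnb4 did not have that order. The part of fat RNA in these soleus levels was not tested. Brown fat was lower than white fat (difference -3.01 log2 units, SE 0.12, limma adjusted p = 4.4e-09). Soleus was lower than white fat (difference -4.11, SE 0.12, limma adjusted p = 1.9e-10) and lower than brown fat (difference -1.10, SE 0.12, limma adjusted p = 6.7e-06). Scn7a made up 91.9% to 98.8% of the FPKM of the sodium channel alpha genes described in brown fat and 99.8% to 99.9% in white fat.

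Cacng7, a gamma subunit known as a partner of AMPA-type glutamate receptors, stood at 2.05, 1.71 and 1.79 FPKM in soleus, 1.67, 1.36 and 1.52 FPKM in brown fat, and 7.70, 8.62 and 6.68 FPKM in white fat. Brown fat was lower than white fat (difference -1.78, SE 0.09, limma adjusted p = 3.6e-08), as was soleus (difference -1.60, SE 0.09, limma adjusted p = 3.7e-08). Soleus and brown fat differed by 0.18 (SE 0.09, limma adjusted p = 0.11), a difference of 0.47 that passed with median of ratios scaling (adjusted p = 0.0012, range 0.0012 to 0.29). Cacnb3 stood at 0.731, 0.444 and 0.545 FPKM in soleus, 0.261, 0.328 and 0.334 FPKM in brown fat, and 2.68, 2.19 and 2.40 FPKM in white fat. Brown fat was lower than white fat (difference -1.39, SE 0.09, limma adjusted p = 1.1e-07), and soleus lay between the fats, higher than brown fat by 0.26 (SE 0.09, limma adjusted p = 0.016). That last call was lost without soleus replicate 1 (adjusted p = 0.063, range 0.0017 to 0.063).

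Scn3b, a sodium channel beta subunit, stood at 0.731, 0.886 and 1.27 FPKM in soleus, 0.0968, 0.105 and 0.0885 FPKM in brown fat, and 2.07, 1.63 and 1.74 FPKM in white fat. The 3 tissues did not overlap. Brown fat was lower than white fat (difference -1.36, SE 0.10, limma adjusted p = 4.8e-07) and soleus was lower than white fat (difference -0.53, SE 0.10, limma adjusted p = 0.00055). Cacna1g, a T-type alpha1 subunit, stood at 0.369, 0.273 and 0.301 FPKM in soleus, 0.124, 0.0558 and 0.0881 FPKM in brown fat, and 0.831, 1.31 and 1.08 FPKM in white fat, with no overlap between tissues. It reached 1 FPKM in 2 libraries and so was not tested.

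In bulk tissue a lower share of a cell type and less RNA per cell cannot be told apart. Markers of other cells also differed between the fats, where 34.8% of all tested genes were lower and 38.0% higher in brown fat. Fibroblast markers, all 9 of them lower in brown fat, summed to 279 to 309 FPKM in brown fat and 1699 to 1778 FPKM in white fat. Macrophage markers, again all 9 lower, summed to 46.8 to 54.6 FPKM in brown fat and 509 to 622 FPKM in white fat, and mesothelial markers, all 7 lower, to 1.20 to 1.42 FPKM and 72.4 to 108 FPKM. Krt8, Wt1 and Bnc1 of the mesothelial list were listed at 0 in brown fat. Bnc1, Krt8, Msln, Upk1b, Upk3b and Wt1 of that list and Itgam of the macrophage list reached 1 FPKM in white fat libraries alone. They entered the test through the tissue where they were high, so the filter fixed their direction. In soleus the fibroblast markers summed to 422 to 540 FPKM, the macrophage markers to 35.3 to 49.4 FPKM and the mesothelial markers to 0.268 to 2.19 FPKM. Endothelial markers summed to 60.0 to 67.6 FPKM in soleus, 122 to 136 FPKM in brown fat and 72.6 to 113 FPKM in white fat. Of the 9 endothelial markers tested, 6 were higher and 1 lower in brown fat than in white. Schwann cell markers, glia of nerves, summed to 84.3 to 101 FPKM in brown fat and 71.8 to 87.5 FPKM in white fat, with 2 of 4 tested higher and 1 lower in brown fat. The 15 neuron markers summed to 14.7 to 20.1 FPKM in soleus, 0.993 to 1.41 FPKM in brown fat and 6.05 to 7.06 FPKM in white fat. Most of the soleus sum was a single gene, Uchl1, at 11.7, 16.0 and 12.4 FPKM. Th and Dbh were listed at 0 in both fats, and both tested members, Uchl1 and Stmn2, were lower in brown fat than in white. The part of these cells in the levels of Scn7a, Cacng7, Cacnb3, Scn3b and Cacna1g was not tested.

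**Figure D3:**
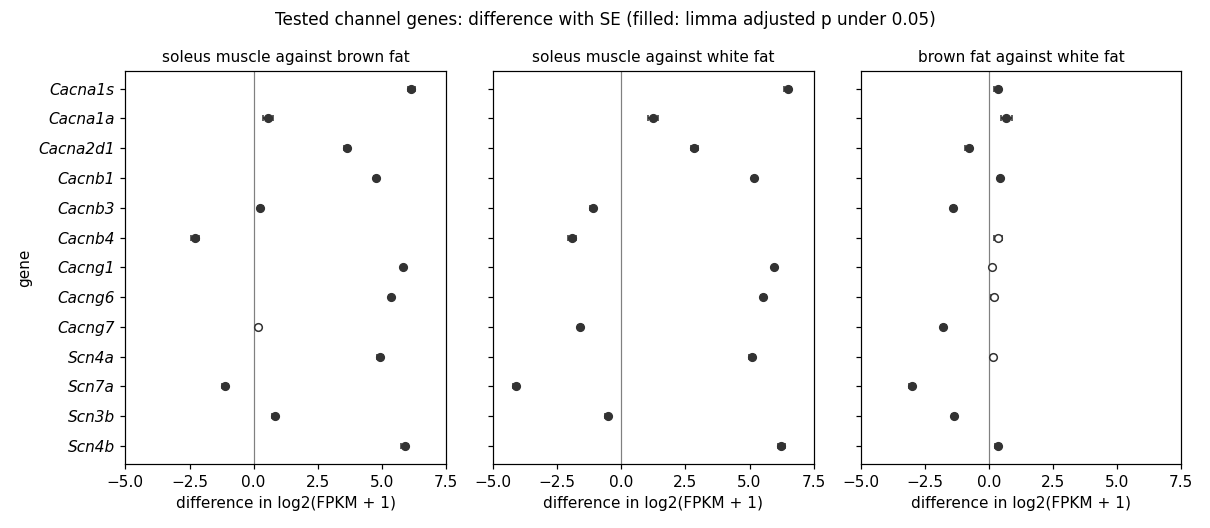
Difference in log2(FPKM + 1) with its SE for the 13 tested channel genes, in soleus against brown fat, soleus against white fat and brown against white fat, where filled points passed a limma adjusted p under 0.05. The muscle subunits lie between 2.85 and 6.49 in the soleus panels, Cacnb4 and Scn7a lie below 0 in both, and in the brown against white panel the largest shift is that of Scn7a at -3.01.

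Between the fats, 4 members were called higher in brown fat, at differences under 1 log2 unit, and 2 without brown fat replicate 2 or without white fat replicate 2. Cacna1a was higher by 0.67 log2 units (SE 0.21, limma adjusted p = 0.014), Cacnb1 by 0.42 (SE 0.07, limma adjusted p = 0.00037), Scn4b by 0.36 (SE 0.13, limma adjusted p = 0.025) and Cacna1s by 0.34 (SE 0.14, limma adjusted p = 0.042). After rescaling all libraries to a common total, as TPM does, none of the 4 passed in limma (0 members higher at an unadjusted p under 0.05 too). That rescaling moved the median of all tested genes from 0.03 to -0.43 and the brown fat side of all calls from 52.2% to 22.4%. Cacna2d1 was lower in brown fat than in white (difference -0.80, SE 0.12, limma adjusted p = 0.00015), and this held under the rescaling. Cacnb4 at 0.35 (SE 0.15, limma adjusted p = 0.054) turned to -0.15 (adjusted p = 0.36, range 0.029 to 0.36). It passed without brown fat replicate 3 (0.46), white fat replicate 1 (0.43) or white fat replicate 3 (0.44), and when the highest of its RefSeq rows stood for the gene in place of their sum (0.38, adjusted p = 0.042).

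The muscle-type subunits varied between the brown fat libraries in one order, with replicate 2 high, replicate 3 between and replicate 1 low. Relative to the soleus mean, Cacna1s reached 0.0918%, 0.615% and 0.254% in brown fat replicates 1, 2 and 3. Scn4a reached 0.111%, 0.694% and 0.384%, Scn4b 0.161%, 0.787% and 0.4996%, and Cacng6 0.0641%, 0.588% and 0.280%. Fast fibre markers had the same order, the troponin gene Tnnc2 at 0.0690%, 0.537% and 0.258% of its soleus mean and the myosin light chain gene Mylpf at 0.0978%, 0.629% and 0.366%. The percents differed between markers. Pvalb reached 0.501%, 4.74% and 2.51%, Actn3 0.443%, 4.86% and 2.65%, and Myl1 1.32%, 1.76% and 1.62%. All 10 fast fibre markers in the matrix together summed to 69.7, 330 and 191 FPKM in brown fat replicates 1, 2 and 3 and to 20.3, 19.2 and 19.6 FPKM in white fat. Of the 10, 9 were called higher in brown fat, beside 38.0% of all tested genes. One of the 9, Tnnt3, reached 1 FPKM in brown fat libraries alone, so the filter fixed its direction in this count. Cacnb1, at 1.96%, 2.06% and 1.80% of its soleus mean, and Cacna2d1, at 4.33%, 4.55% and 5.60%, did not have that order. Without brown fat replicate 2 the brown against white difference was 0.20 for Cacna1s (limma adjusted p = 0.17, range over alternatives 0.0017 to 0.17) and 0.23 for Scn4b (adjusted p = 0.099, range 0.0017 to 0.099), and neither passed. Cacna1s also missed the threshold without brown fat replicate 3, any one white fat replicate or soleus replicate 2 and without a filter on low values (adjusted p = 0.074), and Scn4b without brown fat replicate 3, white fat replicate 1 or white fat replicate 2. The part of muscle RNA in the brown fat levels was not tested.

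**Figure D4:**
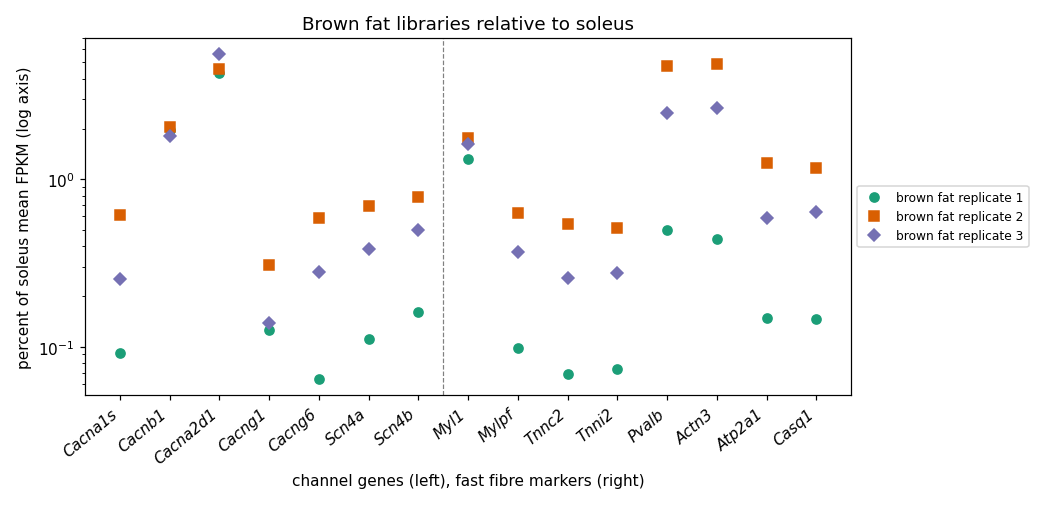
Level in each brown fat library as a percent of the soleus mean FPKM, on a log axis, for 7 channel genes (left) and for the fast fibre markers that reached at least 100 FPKM in every soleus library (right), with a symbol per replicate. Replicate 2 is highest and replicate 1 lowest for Cacna1s, Cacng1, Cacng6, Scn4a and Scn4b and for all 8 markers. Cacnb1 and Cacna2d1 lie above the other channel genes, though not above all markers, and have another order.

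The 24 untested members were low or unseen. Cacng2, Cacng3 and Cacng8, partners of glutamate receptors in the brain, were listed at 0 in all 9 libraries. A further 9 reached 0.1 FPKM in at least 3 libraries, and a fit that admitted them called 6 of the 9 higher in soleus than in brown fat and 0 lower. In that fit 24.9% of the 11928 genes tested were higher and 47.5% lower (72.5% called). The 6 were Cacna1g, Cacna1h, Cacna2d2, Cacna2d3, Cacna2d4 and Scn2b. Cacna2d2 stood at 0.219, 0.316 and 0.436 FPKM in soleus, 0.0120, 0.0208 and 0.0110 FPKM in brown fat, and 0.00600, 0.00832 and 0.0116 FPKM in white fat, 22.2 times the brown fat mean. Against white fat the same fit called 4 higher in soleus and 3 lower (Cacna1d, Cacna1g and Cacng4), beside 27.7% and 54.0% of all its genes (81.8% called). Between the fats it called 3 lower in brown fat (Cacna1d, Cacna1g and Scn2b) and 0 higher, beside 36.9% lower and 33.9% higher (70.9% called). Cacna2d2 and Cacna2d4 reached 0.1 FPKM in soleus libraries alone and Cacna1d in white fat libraries alone. They entered this fit through the tissue where they were high, so the filter fixed their direction in these counts. Cacna1d, an L-type alpha1 subunit, stood at 0.0476, 0.0287 and 0.0212 FPKM in soleus, 0.00871, 0.0156 and 0.0160 FPKM in brown fat, and 0.180, 0.126 and 0.213 FPKM in white fat.

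Cacna1c, the L-type alpha1 subunit of heart and smooth muscle, was low in every library, at 0.195, 0.132 and 0.141 FPKM in soleus, 0.213, 0.148 and 0.237 FPKM in brown fat, and 0.214, 0.245 and 0.253 FPKM in white fat. Its soleus and white fat libraries did not overlap. Cacna1c passed no comparison in the fit with the lower filter (limma adjusted p = 0.31, 0.066 and 0.39 for soleus against brown fat, soleus against white fat and brown against white fat). Smooth muscle markers summed to 215 to 229 FPKM in soleus, 121 to 131 FPKM in brown fat and 131 to 145 FPKM in white fat. The remaining 15 untested members, which include those listed at 0, never exceeded 0.166 FPKM. The value at that limit was Cacna1e, the R-type alpha1 subunit, at 0.00132, 0.00376 and 0.00244 FPKM in soleus, 0.00336, 0.00441 and 0.00615 FPKM in brown fat, and 0.103, 0.0903 and 0.166 FPKM in white fat. Scn8a and Scn1a of the central nervous system and Scn9a, Scn10a and Scn11a of sensory neurons lay at or below 0.0202 FPKM in every library. Scn2a was not analysed here.

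Some members that lie close to each other in the genome differed in level, and Cacng6 and Cacng7 also differed in the tissue where they were highest. Others were alike in level, such as the neighbours Scn10a and Scn11a on chromosome 9, both under 0.1 FPKM in every library. On mouse chromosome 7 the genes Cacng7, Cacng8 and Cacng6 are consecutive protein-coding genes, in the order of the RefSeq table. Of these Cacng6 averaged 45.9 ± 2.93 FPKM in soleus and 0.00692 ± 0.00837 FPKM in white fat, Cacng7 averaged 1.85 ± 0.178 FPKM in soleus and 7.67 ± 0.972 FPKM in white fat (SD, n = 3 each), and Cacng8 was listed at 0. Cacng1, Cacng4 and Cacng5 are consecutive on chromosome 11, where Cacng1 averaged 63.5 ± 3.22 FPKM in soleus (SD, n = 3) and Cacng4 and Cacng5 stayed at or under 0.0730 FPKM there. Scn9a and Scn7a are neighbours on chromosome 2, and Scn9a stayed at or under 0.00324 FPKM in white fat, where Scn7a led. Scn2b and Scn4b are neighbours on chromosome 9, and both were highest in soleus, at means of 0.306 ± 0.0207 and 80.8 ± 8.43 FPKM (SD, n = 3).

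Partners of the calcium channel in excitation-contraction coupling were taken from a list of 30 genes, of which 28 were in the matrix and 23 were tested. Against brown fat 18 of the 23 were higher and 2 lower in soleus, beside 25.6% and 52.9% of all tested genes, with a median difference of 4.40 log2 units beside -0.29. Against white fat 19 were higher and 4 lower, beside 29.7% and 54.5%, with a median of 4.95 beside -0.35. Of these partners Sln, Stac3, Jsrp1, Trdn, Jph1 and Jph2 reached 1 FPKM in soleus libraries alone and Fkbp1b in white fat libraries alone. They entered the test through the tissue where they were high, so the filter fixed their direction in these counts and medians. Sarcolipin (Sln), a regulator of the calcium pump, stood at 218, 316 and 332 FPKM in soleus and at 0.0519, 0 and 0.0950 FPKM in brown fat. The pump gene Atp2a1 stood at 2067, 2101 and 2697 FPKM in soleus, 3.39, 28.6 and 13.5 FPKM in brown fat, and 0.0219, 0.116 and 0.325 FPKM in white fat. The lower genes against brown fat were Mtm1, a lipid phosphatase gene at 5.19, 5.32 and 5.63 FPKM in soleus and 11.8, 10.8 and 10.8 FPKM in brown fat, and Fkbp1a, a gene of a protein that binds the ryanodine receptor.

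The direct partners of Cacna1s in that list were named after their values were seen. Ryr1, the ryanodine receptor that the channel opens, stood at 170, 203 and 273 FPKM in soleus, 0.204, 1.83 and 0.811 FPKM in brown fat, and 1.21, 1.56 and 1.95 FPKM in white fat. Stac3, an adaptor needed for that coupling, stood at 122, 132 and 125 FPKM in soleus, 0.441, 0.712 and 0.345 FPKM in brown fat, and 0.0378, 0.0678 and 0.0966 FPKM in white fat. Between the fats 13 of the 23 partners were higher and 7 lower in brown fat, beside 38.0% and 34.8% of all tested genes, with Atp2a1 and sarcalumenin (Srl) the largest on the higher side. Atp2a1 and Casq1, the calsequestrin gene at 0.890, 7.11 and 3.87 FPKM in brown fat and 0.134, 0.106 and 0.156 FPKM in white fat, are also on the fast fibre list. Both had the replicate order of the fast fibre sums in brown fat (69.7, 330 and 191 FPKM), and the part of muscle RNA in this count was not tested. Srl, a calcium-binding protein gene of the reticulum, stood at 8.59, 7.35 and 6.93 FPKM in brown fat and 0.653, 0.826 and 0.849 FPKM in white fat. Asph, whose gene also encodes junctin, stood at 10.1, 10.4 and 10.6 FPKM in brown fat and 53.5, 48.8 and 64.97 FPKM in white fat.

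Partners of the sodium channel, 11 tested of 17 listed, had calls in both directions. In soleus 5 were higher and 6 lower than in brown fat, beside 25.6% and 52.9% of all tested genes, and 5 were higher and 5 lower than in white fat, beside 29.7% and 54.5%. The lower counts lay near those shares. The medians were -0.44 and 0.05 log2 units. Cav3 and Ank3 reached 1 FPKM in soleus libraries alone and Fgf14 in brown fat libraries alone. These genes entered the test through the tissue where they were high. Cav3, the caveolin of muscle, stood at 60.9, 76.3 and 71.3 FPKM in soleus and 0.0674, 0.175 and 0.0616 FPKM in brown fat. Ank3, the ankyrin that anchors sodium channels, stood at 11.2, 10.9 and 12.2 FPKM in soleus, 0.261, 0.253 and 0.303 FPKM in brown fat, and 0.204, 0.103 and 0.230 FPKM in white fat. Sntb1, a syntrophin gene, went the other way, at 1.21, 0.791 and 0.561 FPKM in soleus, 15.7, 10.6 and 12.3 FPKM in brown fat, and 27.8, 32.3 and 24.9 FPKM in white fat. Nedd4l, a ubiquitin ligase gene that acts on sodium channels, stood at 1.38, 1.29 and 1.31 FPKM in soleus and 5.39, 7.58 and 5.16 FPKM in brown fat.

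Regulators of calcium channels outside the family, 11 tested of 15 listed, showed 6 higher and 3 lower in soleus than in brown fat, beside 25.6% and 52.9% of all tested genes. Against white fat 3 were higher and 5 lower, near the shares of 29.7% and 54.5%. Nos1 reached 1 FPKM in soleus libraries alone, so it entered the test through the tissue where it was high. Rrad, a small GTPase gene whose product inhibits calcium channels, stood at 26.6, 32.9 and 20.9 FPKM in soleus, 0.187, 0.364 and 0.213 FPKM in brown fat, and 2.62, 1.69 and 1.96 FPKM in white fat. Adrb1, an adrenergic receptor gene, stood at 0.0988, 0.0584 and 0.0401 FPKM in soleus, 4.796, 16.0 and 11.2 FPKM in brown fat, and 1.74, 0.929 and 1.43 FPKM in white fat. Between the fats 3 of the 11 were higher and 6 lower in brown fat, beside 38.0% and 34.8%, with a median of -0.37 log2 units. Ahnak, a scaffold gene, was the largest of the lower ones, at 43.6, 36.2 and 44.3 FPKM in brown fat and 104, 117 and 115 FPKM in white fat.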

How the data were processed

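RNA-seq was measured in 9 libraries, 3 each of soleus muscle, brown fat and white fat. The authors deposited FPKM values per RefSeq row, and TopHat 1.4.1, Cufflinks 2.0.1 and build mm9 are named per the submitters' processing notes. The options and the annotation release were not given in the sources used here. Of 18401 rows, 18343 were matched to 1 symbol and rows were summed per symbol, giving 17753 genes. Cacnb4 and Cacng6 had more than 1 row.

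One limma model (version 3.58.1, R 4.3.3) of the 9 libraries used log2(FPKM + 1) and a trend of variance on mean. It covered the 9913 genes that reached 1 FPKM in 3 or more libraries. Tests were two-sided, with Benjamini-Hochberg adjustment per comparison, and the fit was tested on simulated data. FPKM is relative to the mapped depth of a library, so very abundant transcripts lower the values of the rest. Relative depth came from ratios of values at or under 0.3 FPKM, and 34 of 36 library pairs were within 0.05 log2 units of a single scale. Of the family, 2 members are not reported here and stand outside its counts, sums and figures, while all genes stayed in the fit. The members and lists were chosen with earlier results of these data known. Per-library values are given for members that averaged 1 FPKM or more in a tissue, and of each partner list mainly for the called genes with the largest change. Members are named beyond this, such as Cacna1c or Cacna1e, after their values were seen. RefSeq names came from another build and were used for names, gene order and the printed upstream windows.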

Additional observations from a re-analysis of the deposited data

How the results depend on the processing

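The 39 differences of the 13 tested members were recomputed under 19 alternatives each, and 28 kept their call and direction in all of them. All 13 in soleus against white fat, 10 of 13 in soleus against brown fat and 5 of 13 in brown against white fat were among these. Fits that admitted lower genes added members to the counts. Without a filter, calls were also lost for Cacna1a in soleus against brown fat (limma adjusted p = 0.063) and Cacna1s in brown against white fat (adjusted p = 0.074). With no filter on low values soleus had 17 members higher than brown fat, 14 higher and 11 lower than white fat, and brown fat had 10 lower than white fat. Of all 14538 genes in that fit, 3146 were higher in soleus than in brown fat. Against white fat 3466 of them were higher and 6855 lower in soleus, and 4809 were lower in brown fat than in white. With a filter at 0.1 FPKM these were 16 higher than brown fat, 8 lower than white fat in soleus, and 8 lower in brown fat than in white. The shares of all 11928 genes of that fit were 24.9%, 54.0% and 36.9%. In brown against white fat, 7 members were higher with a pseudocount of 0.1 and 0 with TPM rescaling, beside 3773 and 1778 of all 9913 tested genes. Cacnb4 also passed there when the highest row stood for each symbol. TPM rescaling turned Cacnb4 to -0.15 log2 units. Leaving out 1 library gave 2 to 5 members higher in brown than in white fat, beside 3479 to 3789 of all tested genes. The lowest member count was reached by omitting replicate 2 of either fat. Where the cause of a change is not in the alternative itself, the cause was not tested.

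Libraries with the same replicate number did not deviate together (r from -0.22 to 0.077 over 9 pairs), so the numbers were not taken as pairs. With the replicate number as a block Cacnb4 passed in brown against white fat at 0.35 log2 units (limma adjusted p = 0.046), and no other member changed its call. Fragment counts behind the low values are unknown, because only relative depths could be had.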
